A study of Mus musculus with 18 samples.

Results

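The 7 genes described here belong to the cytoskeleton, adhesion and migration machinery of macrophages: the actin regulators Fscn1, Cyfip2 and Cdc42bpa, the adhesion genes Itga9 and Afdn, and the microtubule genes Tuba1a and Mtus1. They were chosen by symbol from the rows that the authors deposited, with earlier results of these data in view, and are 7 of 816 distinct symbols in those rows. All 7 stand in at least 2 of the 3 conditions compared, which the choice itself favours, so the values below describe these genes and support nothing further. Macrophages crawl by pushing their front edge forward with branched and bundled actin, by gripping the matrix or other cells through integrins and junction proteins, and by pulling the rear along with myosin, while microtubules steer transport and polarity.

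The libraries are RNA-seq of mouse bone marrow-derived macrophages, primary cells grown from marrow in medium conditioned by L929 cells. EED KO cells came from mice with Eed fl/fl and LysM-Cre+/-, a Cre recombinase carried by the Lyz2 gene of myeloid cells, and WT cells came from littermate controls whose own Eed and Cre alleles the labels leave unstated. EED is a subunit of Polycomb repressive complex 2, which methylates lysine 27 of histone H3 at genes that are kept silent, many of them with promoters rich in CpG dinucleotides. There were 6 groups of 3 libraries: EED KO unstimulated, EED KO LPS primed, EED KO LPS tolerant, WT unstimulated, WT LPS primed and WT LPS tolerant cells. The labels' protocols give 100 ng/ml of Salmonella lipopolysaccharide (LPS) for 24 h as the priming dose, and for tolerant cells a rest of 48 h and a further dose of 10 ng/ml. No age or sex of the mice is given, and whether the 3 libraries of a group come from separate mice is not stated, so the spread behind the p-values may be partly technical. Per-library values were not used here, so neither the depth nor the levels in single samples, nor the levels of macrophage markers, can be shown.

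Each value is a log fold change of EED KO over WT within 1 condition, read as log2, with an unadjusted and an adjusted p-value from the authors. A row may cover only part of a gene, for reasons given with Mtus1. The direction was read from Eed, which the authors' deposited table gives at -3.04 in unstimulated, -3.59 in LPS primed and -3.87 in LPS tolerant cells. Lyz2, which carries the Cre, fell by 1.17, 1.19 and 0.93 in the same order of conditions per the authors' deposited table. "Rose" and "fell" are kept for an adjusted p under 0.05. The rows hold only values past an unadjusted p of about 0.05 and an absolute log2 fold change of 0.75, so a gene that is absent from a condition has an unknown value there, not a value of 0. In bulk samples of this kind, a shift in which cells are present and a shift in RNA per cell cannot be told apart. Markers of dendritic cells, which can arise in marrow cultures, are given beside Fscn1.

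In unstimulated cells 5 of the 7 genes were listed, 4 of them higher without EED and 1 lower, and Itga9 alone rose. Over all 227 unstimulated rows the share with an adjusted p under 0.05 was 19.4%, made up of 16.7% that rose and 2.64% that fell. In LPS primed cells 6 were listed, all higher, and 3 rose, Fscn1, Mtus1 and Cdc42bpa, beside 33.2% of all 377 rows (27.6% that rose and 5.57% that fell). In LPS tolerant cells all 7 were listed, 6 higher and 1 lower, and 3 rose, Tuba1a, Fscn1 and Cdc42bpa, beside 23.6% of all 419 rows (21.2% that rose and 2.39% that fell). None of the 7 fell in any condition. The median log2 fold change of the listed genes was 0.98 in unstimulated, 1.32 in primed and 1.15 in tolerant cells, next to 0.98, 0.96 and 0.86 over all listed rows of the same conditions. Most rows were higher in EED KO cells in any case: 76.7% in unstimulated, 79.8% in primed and 82.1% in tolerant cells.

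**Figure D1:**
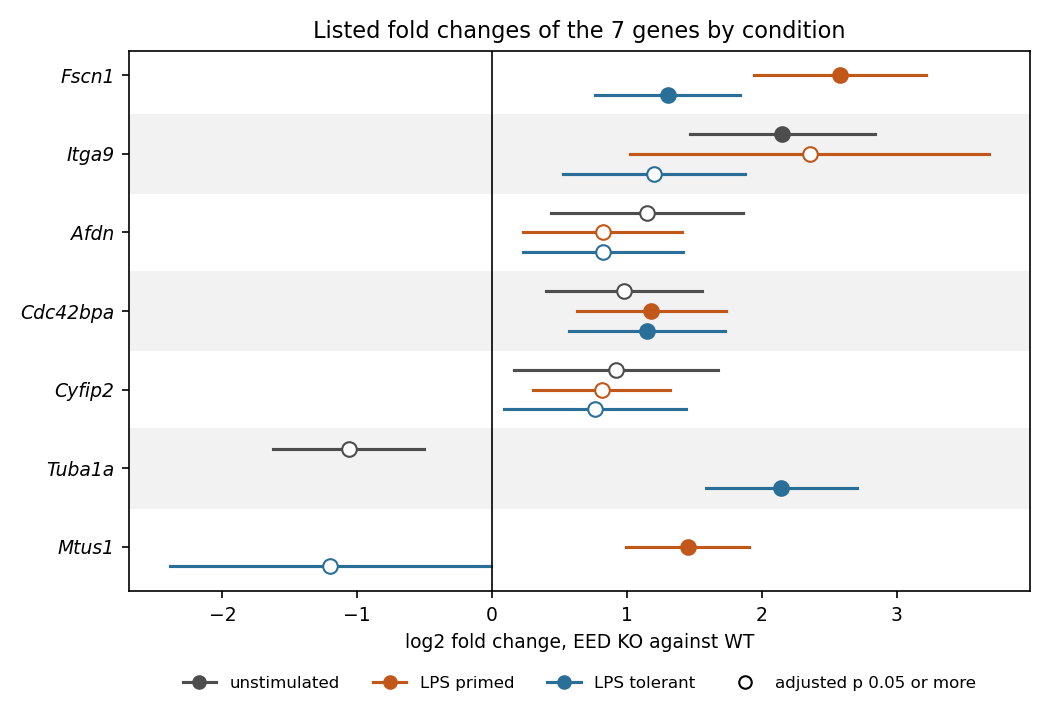
Log2 fold change of EED KO over WT (horizontal axis) for the 7 genes (vertical axis) in each condition where the authors list them. Bars are approximate 95% intervals implied by the unadjusted p-values, and open points have an adjusted p of 0.05 or more. Tuba1a and Mtus1 have points on both sides of 0, and the other 5 genes lie to the right of it.

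Fscn1 encodes fascin, which packs actin filaments into the tight bundles of filopodia and is abundant in mature dendritic cells. It rose by 2.58 on the log2 scale in LPS primed EED KO cells, 5.98-fold, per the authors' deposited table (approximate SE 0.32, adjusted p = 8.49e-12). In LPS tolerant cells it rose by 1.30, 2.47-fold, per the authors' deposited table (approximate SE 0.27, adjusted p = 0.00149). By size it ranked 15 of the 301 higher rows in primed cells and 86 of the 344 higher rows in tolerant cells. The log2 fold change in tolerant cells was below that in primed cells by 1.28, with an approximate SE of the difference of 0.42. It was not listed in unstimulated cells. All 14 other dendritic cell markers, Ccr7, Flt3 and Zbtb46 among them, were unlisted in both conditions where Fscn1 rose; in unstimulated cells Cd24a was listed at 0.93 (adjusted p = 0.573) per the authors' deposited table. That list holds no MHC class II genes, which are high in dendritic cells and also made by macrophages, and several of these were listed as higher; they were looked up after their values were seen. In primed cells H2-Aa rose by 1.70 (adjusted p = 5.93e-10), H2-Eb1 by 1.52 (adjusted p = 1.46e-07) and Cd74, the invariant chain, by 1.14 (adjusted p = 3.98e-05) per the authors' deposited table, while H2-Ab1 stood at 1.09 (adjusted p = 0.189). In tolerant cells the authors' deposited table gives 0.80 for H2-Aa (adjusted p = 0.521), 0.94 for H2-Eb1 (adjusted p = 0.227) and 0.96 for H2-Ab1 (adjusted p = 0.122). In unstimulated cells, where Fscn1 was not listed, H2-Aa, H2-Eb1 and H2-Ab1 rose by 1.51, 1.69 and 1.63 per the authors' deposited table (adjusted p = 0.0380, 0.000563 and 0.000544). Cd74 stood at 1.10 in unstimulated cells and did not pass. The part of dendritic cells in the Fscn1 values was not tested.

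The bases before the Fscn1 start are shown because this gene had the largest fold change of the 7 in a single condition. They are RefSeq sequence of build GRCm38.p6, an older build than the GRCm39 of the submitters' processing notes, on the plus strand at chr5:142960105-142960354, and capitals mark CpG dinucleotides.
Fscn1: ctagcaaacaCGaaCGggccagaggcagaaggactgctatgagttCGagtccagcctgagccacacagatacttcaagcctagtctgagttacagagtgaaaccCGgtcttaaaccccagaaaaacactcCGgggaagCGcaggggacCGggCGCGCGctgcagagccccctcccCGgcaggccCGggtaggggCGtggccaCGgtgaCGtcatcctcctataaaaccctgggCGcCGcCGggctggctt
The stretch holds 18 CpG dinucleotides in 250 bases, and 1 TATA box (TATAAA) that begins 31 bases before the start. A TATA box was found on either strand in 13.6% of all promoter windows. Of the 4 protein-coding genes closest on either side, Actb, the gene of cytoplasmic beta-actin, Rnf216 and Rbak were not listed in any condition, and Fbxl18 was listed in tolerant cells at -0.90 (adjusted p = 1) per the authors' deposited table.

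Cyfip2 encodes a subunit of the WAVE regulatory complex, which receives the Rac signal and switches on branched actin assembly. Its values were among the smallest of the 7 and close to each other. The authors' deposited table gives 0.92 in unstimulated (adjusted p = 1), 0.81 in primed (adjusted p = 0.233) and 0.76 in tolerant cells (adjusted p = 1), so it passed the threshold in none. Its approximate SEs were 0.39, 0.26 and 0.34 in the same order. In tolerant cells it ranked 331 of 344 higher rows by size, just above the smallest fold change that the authors list. Its paralog Cyfip1 was not listed, nor were the WAVE complex genes Nckap1l, Wasf2, Abi1 and Brk1. Adam19, a membrane-bound metalloprotease gene that is the second protein-coding gene to one side of Cyfip2, rose by 2.43 in primed and 1.71 in tolerant cells per the authors' deposited table (adjusted p = 5.44e-14 and 4.76e-07).

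Cdc42bpa encodes MRCK alpha, a kinase that binds active Cdc42 and raises myosin activity at the edge and rear of moving cells. Its values were close to each other, and its calls were near the threshold. The authors' deposited table gives 0.98 in unstimulated cells (approximate SE 0.29, adjusted p = 0.489). It rose by 1.18 in primed (SE 0.28, adjusted p = 0.0131) and by 1.15 in tolerant cells (SE 0.30, adjusted p = 0.0429) per the authors' deposited table. The log2 fold change in tolerant minus that in primed cells was -0.03 with an approximate SE of 0.41, and the differences from unstimulated cells were 0.20 for primed and 0.17 for tolerant cells, with SEs of 0.41 and 0.42. Being called in 2 conditions and not in the other thus does not by itself show a difference between conditions. The SEs depend on the assumed distribution: with 4 degrees of freedom those of the single values are 0.11, 0.056 and 0.075 in unstimulated, primed and tolerant cells. Its paralogs Cdc42bpb and Cdc42bpg, and Cdc42 itself, were not listed.

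**Figure D2:**
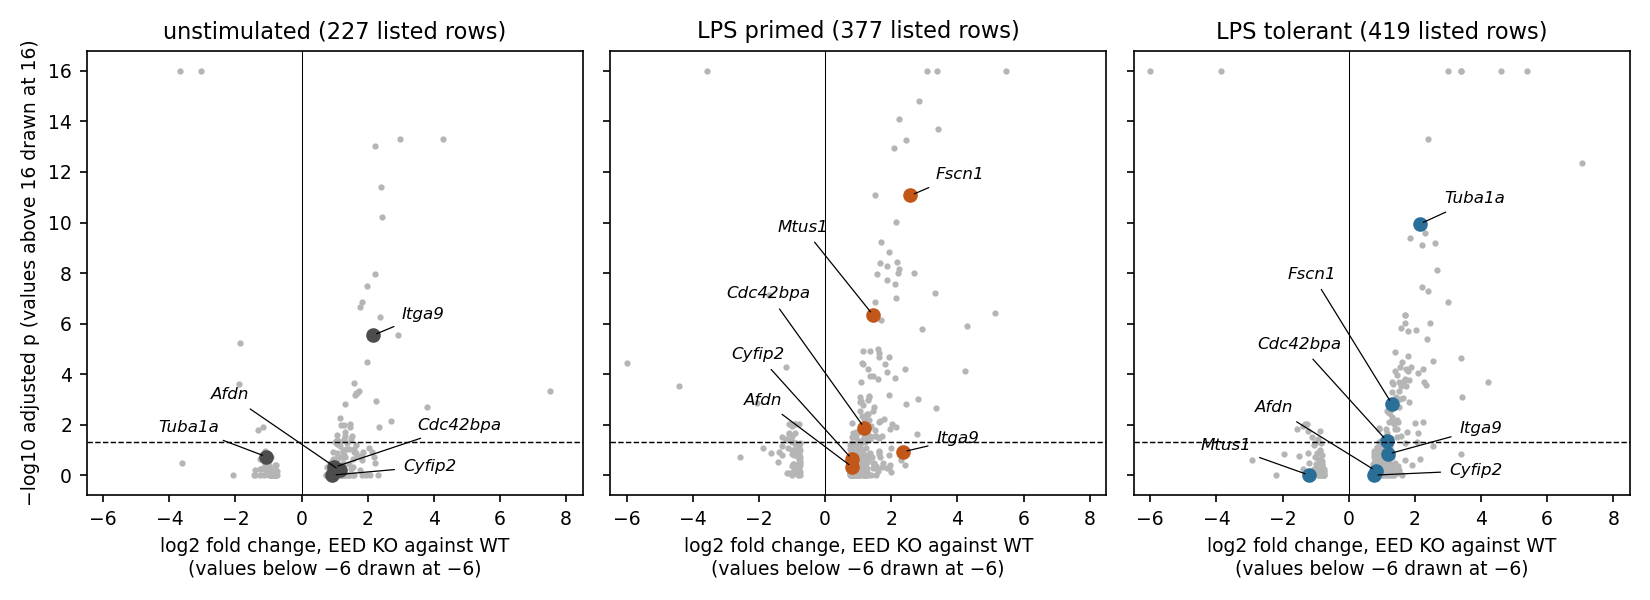
Log2 fold change of EED KO over WT (horizontal axis) against −log10 of the adjusted p (vertical axis) for all listed rows of each condition, with the 7 genes named and coloured. The dashed line marks an adjusted p of 0.05; Itga9 lies above it in unstimulated cells, Fscn1, Mtus1 and Cdc42bpa in primed cells, and Tuba1a, Fscn1 and Cdc42bpa in tolerant cells.

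Itga9 encodes the integrin alpha9 chain, which pairs with beta1 to bind tenascin-C, osteopontin, VCAM-1 and other ligands. It was higher in EED KO cells in all 3 conditions. In unstimulated cells it rose by 2.15, 4.45-fold, per the authors' deposited table (approximate SE 0.35, adjusted p = 2.94e-06), and ranked 17 of 174 higher rows by size. The primed value was as large, 2.35 or 5.11-fold, with an approximate SE of 0.68 that was wider than those of the other conditions, and an adjusted p of 0.120 per the authors' deposited table. The tolerant value was 1.20, with an approximate SE of 0.35 and an adjusted p of 0.145 per the authors' deposited table. Between primed and unstimulated cells the log2 fold changes differed by 0.20 with an SE of 0.76, and the value without a call in primed cells was not the smaller one. The wider SE is derived from the p-value itself, so it restates the missing call and does not explain it. The tolerant value was below the unstimulated one by 0.95, with an SE of 0.49. Of 13 genes for ligands of this integrin, none was listed in unstimulated or primed cells. In tolerant cells Tnc stood at 1.39 (adjusted p = 0.336) and Vcam1 at -1.12 (adjusted p = 0.978) per the authors' deposited table. Itgb1, the partner chain, was not listed in any condition.

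Afdn encodes afadin, the scaffold that ties nectins at cell contacts to actin filaments. It was listed as higher in all 3 conditions and passed the threshold in none. The authors' deposited table gives 1.15 in unstimulated (adjusted p = 0.642), 0.82 in primed (adjusted p = 0.481) and 0.82 in tolerant cells (adjusted p = 0.673). Its approximate SEs were 0.36, 0.30 and 0.30 in the same order, and with these no difference between conditions exceeded its own SE. From Student's distribution with 4 degrees of freedom the SEs are smaller, 0.15, 0.16 and 0.16. Of the nectins that afadin binds, Nectin2 rose by 1.13 in primed cells (adjusted p = 3.63e-05) per the authors' deposited table. Per the authors' deposited table, Nectin4 stood at 0.77 (adjusted p = 0.955) in primed and 0.85 (adjusted p = 1) in tolerant cells. The window at the Afdn start had the highest CpG content among the 6 genes with a RefSeq promoter window. The 100 bases before the first RefSeq start are shown for comparison with Fscn1, from the plus strand of GRCm38.p6 at chr17:13760291-13760390, with CpG dinucleotides in capitals.
Afdn: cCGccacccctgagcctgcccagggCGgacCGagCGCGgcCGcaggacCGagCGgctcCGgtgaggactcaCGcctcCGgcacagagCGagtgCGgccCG
These 100 bases hold 14 CpG dinucleotides and 78% G and C.

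Tuba1a encodes an alpha-tubulin, a building block of microtubules that is best known from developing neurons. It rose by 2.14 in LPS tolerant EED KO cells, 4.42-fold, per the authors' deposited table (approximate SE 0.28, adjusted p = 1.15e-10), and ranked 28 of 344 higher rows by size. In unstimulated cells the sign was the opposite: the authors' deposited table gives -1.06 (approximate SE 0.29, adjusted p = 0.187), which did not pass the threshold. The log2 fold change in tolerant minus that in unstimulated cells was 3.21, with an approximate SE of 0.40. In primed cells it was not listed. No other gene of 20 tubulins was listed in any condition, including Tuba1b and Tuba1c, which lie next to Tuba1a on the chromosome.

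Reads of Tuba1a are hard to assign. Of all 150-base windows of its transcript in the GENCODE M21 annotation, 54.7% occur letter for letter in transcripts of 9 other genes, which are Tuba1b, Tuba1c and 7 genes with Gm names. None of the 9 was listed in any condition. For the other 6 genes the share of such windows was 0%. How the authors counted reads that match several genes is likewise unstated, so the Tuba1a values are uncertain to that extent. The bases before its start are shown because its fold change had opposite signs in different conditions. They come from the minus strand of GRCm38.p6 at chr15:98953502-98953751, with CpG dinucleotides in capitals.
Tuba1a: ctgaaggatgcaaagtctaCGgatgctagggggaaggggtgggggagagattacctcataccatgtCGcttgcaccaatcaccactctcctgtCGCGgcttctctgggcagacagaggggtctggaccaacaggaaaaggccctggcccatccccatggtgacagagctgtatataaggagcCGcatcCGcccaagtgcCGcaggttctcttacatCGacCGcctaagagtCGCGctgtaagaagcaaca
It holds 11 CpG dinucleotides in 250 bases, 1 CCAAT box (CCAAT) that begins 176 bases before the start and 1 GC box (GGGCGG) on the other strand.

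Mtus1 encodes a microtubule-associated protein that also binds the angiotensin II type 2 receptor. It rose by 1.45 in primed EED KO cells, 2.73-fold, per the authors' deposited table (approximate SE 0.23, adjusted p = 4.61e-07). In tolerant cells the authors' deposited table gives -1.20 (approximate SE 0.61, adjusted p = 1), and the unadjusted p of 0.048 is close to the highest that was listed. The log2 fold change in tolerant minus that in primed cells was -2.65, with an approximate SE of 0.65. It was not listed in unstimulated cells. Mtus1 has 14 transcripts and 39 distinct exons in the GENCODE M21 annotation. That bears on the sign change, because the adjusted p-values imply at least 413000, 379000 and 338000 tests in unstimulated, primed and tolerant cells, and RefSeq holds 49997 mouse genes in GRCm38.p6. A listed row may therefore cover only some exons or transcripts, and whether the Mtus1 rows of both conditions are the same part was not tested. Tuba1a has 1 annotated transcript with 4 exons, and the same was not tested for its rows.

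Opposite signs were uncommon among listed genes. Of 164 symbols with 1 row per list that stood in at least 2 conditions, 12 (7.32%) had opposite signs, and Tuba1a and Mtus1 are 2 of the 12. In 7 of the 12, these 2 among them, 1 of the opposite values passed the threshold, and in none did both. The other 5 genes described here were positive wherever they were listed.

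**Figure D3:**
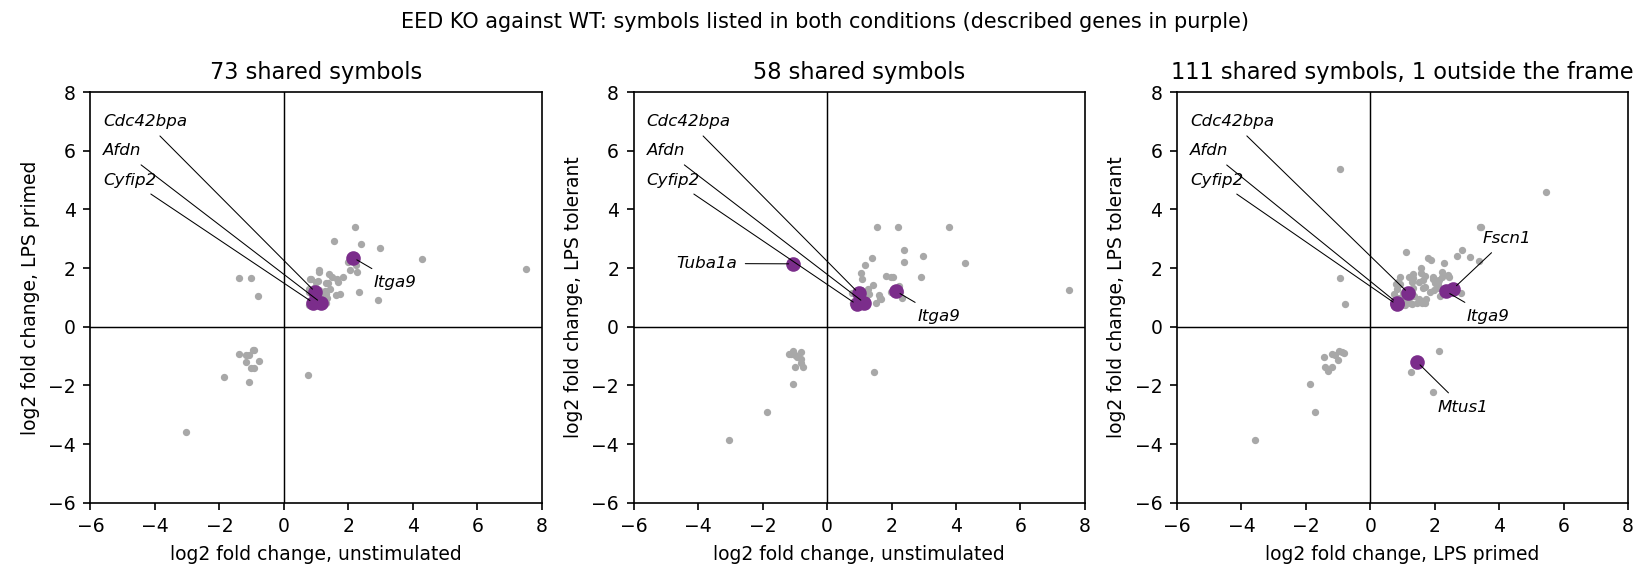
Log2 fold changes of EED KO over WT for symbols listed in both of a pair of conditions, later condition on the vertical axis. Purple points are the genes described here; Tuba1a and Mtus1 lie in quadrants of opposite sign, and the other purple points lie in the upper right.

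The genes with the most similar fold changes were found as those listed in exactly the same conditions with the smallest Euclidean distance over the log2 fold changes. Among 38 other symbols listed in all 3 conditions, Afdn was closest to Bmi1, a subunit of Polycomb repressive complex 1, at a distance of 0.15, and then to Cyfip2 at 0.24. Cyfip2 was closest to Rbfox2, an RNA splicing factor, at 0.12. Cdc42bpa was closest to Rragd, a Rag GTPase of nutrient sensing, at 0.13, followed by Kctd17 and Rims3. Itga9 was closest to Tmem176b at 0.34, followed by Plxdc2 and Cd55. Among 71 other symbols listed in primed and tolerant cells only, Fscn1 was closest to Slc1a2, a glutamate transporter, at 0.28, and Adam19 came next at 0.43. Mtus1 was closest to Mndal, an interferon-inducible gene, at 0.78, and Mndal has the same change of sign. Tuba1a had no close match among 18 symbols listed in unstimulated and tolerant cells only: the nearest, Gas6, was at 2.09. With 2 or 3 values per gene, such distances describe these lists and no more.

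Beyond these 7, the wider machinery was looked at through 318 other genes in 11 lists, of which 25 were listed in at least 1 condition and 9 rose in at least 1. For scale, 816 distinct symbols were listed in any condition, beside 21900 protein-coding genes in RefSeq. In unstimulated cells 3 were listed, all higher, and 2 rose. In primed cells 12 were listed, 11 higher and 1 lower, and 7 rose. In tolerant cells 17 were listed, 15 higher and 2 lower, and 4 rose. None fell. Over all rows, in the same order of conditions, 19.4%, 33.2% and 23.6% had an adjusted p under 0.05. Of all rows, 76.7%, 79.8% and 82.1% were higher in EED KO cells, and 2.64%, 5.57% and 2.39% fell. The medians of the log2 fold changes of these listed genes were 1.29, 1.00 and 0.84 in the same order, next to 0.98, 0.96 and 0.86 over all listed rows.

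Integrins and their adaptors gave several of these. Itga6, an alpha chain of laminin receptors, rose by 1.07 in primed cells per the authors' deposited table (adjusted p = 0.00121) and stood at 0.76 in tolerant cells (adjusted p = 0.799). Itgal, the alpha chain of LFA-1 that leukocytes use to grip ICAMs, rose by 0.82 in primed and 0.98 in tolerant cells per the authors' deposited table (adjusted p = 0.0302 and 0.043). Parvg, a parvin that links integrins to actin in blood cells, rose by 1.29 in primed cells per the authors' deposited table (adjusted p = 0.00365) and stood at 1.14 in tolerant cells (adjusted p = 0.828). Nedd9, a docking protein of integrin signalling, rose by 1.30 in tolerant cells per the authors' deposited table (adjusted p = 0.00502). The other listed integrins, Itga1 at 0.91 in primed and Itgb5 at 0.83 in tolerant cells per the authors' deposited table, did not pass.

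At cell junctions, F11r, the junctional adhesion molecule JAM-A, rose by 1.33 in primed and 1.80 in tolerant cells per the authors' deposited table (adjusted p = 0.000739 and 1.85e-05). Among microtubule-associated genes, Map2, which stabilises microtubules in dendrites, rose by 2.42 in unstimulated cells per the authors' deposited table (adjusted p = 5.96e-11). Dst, a large linker between cytoskeletal filaments, rose by 1.29 in unstimulated and 1.12 in primed cells per the authors' deposited table (adjusted p = 0.0103 and 0.0498). Of 28 chemotactic receptors, Cx3cr1, the fractalkine receptor, rose by 2.24 in primed and 1.87 in tolerant cells per the authors' deposited table (adjusted p = 7.03e-09 and 4.15e-10). Ccr1, a receptor for inflammatory chemokines, stood at -0.86 in tolerant cells per the authors' deposited table (adjusted p = 0.556). The other listed receptors were higher and did not pass: Cmklr1 at 0.93 in primed cells (adjusted p = 0.889) and Plxnd1 at 0.80 in tolerant cells.

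Genes of the core actin machinery that were listed are given here by name, as far as the gene lists used here hold them. These gene lists are not complete. For scale, 816 distinct symbols were listed in any condition, and RefSeq holds 21900 protein-coding mouse genes in GRCm38.p6. The counts are therefore not read as low or high. Of 41 such bundlers, crosslinkers and capping proteins besides Fscn1, Capg was listed at -0.78 in primed cells and Marcksl1 at 0.85 in tolerant cells. Neither passed per the authors' deposited table (adjusted p = 0.578 and 0.978). Among actin-binding genes outside that gene list, Sptbn1 stood at 1.00 (adjusted p = 0.0773) and Lsp1 at -0.85 (adjusted p = 0.247) in tolerant cells. Palld, also outside it, stood at 0.78 in unstimulated and 0.75 in primed cells and did not pass. Of 35 actin assembly genes besides Cyfip2, the formin Fmnl1 was the only one, at 0.84 in tolerant cells per the authors' deposited table (adjusted p = 0.702). Myo10, the filopodial motor, was the only one on a list of 16 myosins, at 0.89 in unstimulated cells per the authors' deposited table (adjusted p = 0.735). Myo6, a myosin outside that list, stood at 1.67 in unstimulated cells per the authors' deposited table (adjusted p = 0.174).

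**Figure D4:**
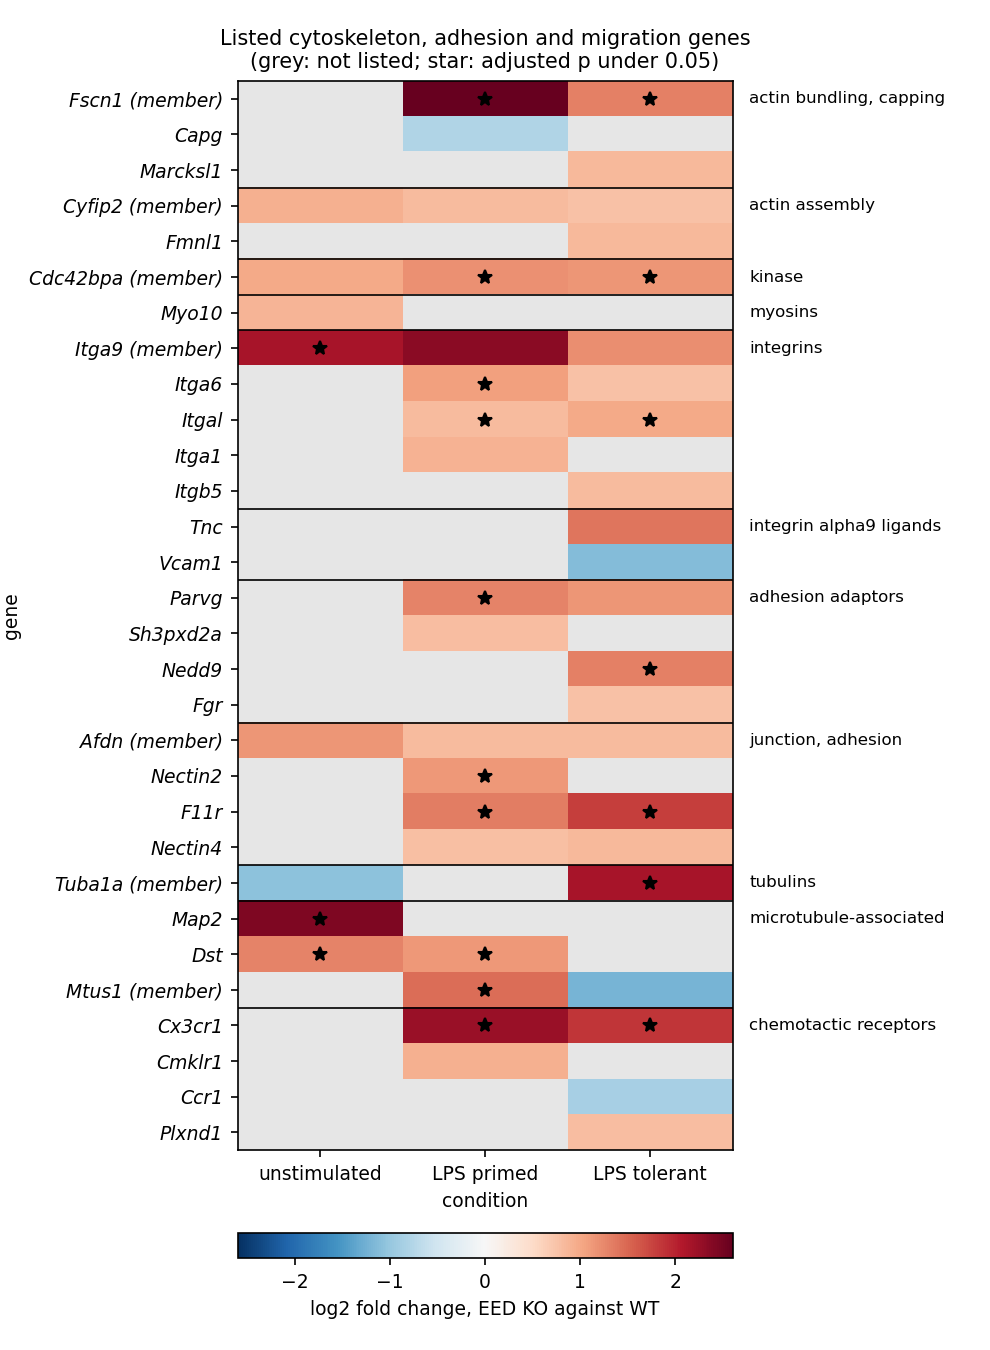
Log2 fold change of EED KO over WT (colour scale) for the 7 genes and 23 of the other 25 listed genes of the wider lists (rows) in the 3 conditions (columns). Grey cells were not listed and stars mark an adjusted p under 0.05. Red cells outnumber blue ones in each column. Stars stand on adhesion genes and also on actin, kinase, microtubule and chemotactic receptor genes.

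Several markers of other cell types were listed beside these genes. For scale, 816 distinct symbols were listed in any condition, beside 21900 protein-coding genes in RefSeq. In unstimulated cells Ighm, of 8 B cell markers, stood at 1.63 per the authors' deposited table (adjusted p = 0.132). Cd34, of 10 megakaryocyte, erythroid and progenitor markers, stood at 1.84 in the same cells per the authors' deposited table (adjusted p = 0.153). In tolerant cells Mmp8, of 11 neutrophil markers, rose by 1.30 and Ppbp, of the same 10 markers as Cd34, by 2.03 per the authors' deposited table. Dcn, of 12 stromal markers, rose by 1.71 in primed cells and stood at 1.35 in tolerant cells per the authors' deposited table (adjusted p = 0.0287 and 0.668). Of 8 osteoclast markers, Mmp9 rose by 3.43 in primed and 3.41 in tolerant cells, and Ctsk fell by 1.89 in unstimulated cells, per the authors' deposited table. None of 9 T and NK cell markers was listed. Of 11 macrophage genes, Lyz2 fell in each condition and Mertk stood at 0.79 in primed cells (adjusted p = 0.374) per the authors' deposited table. Lyz2 carries the Cre in EED KO cells, and the part of the Cre allele in its fall was not tested. The part of these cell types in the values of the 7 genes was not tested.

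Promoter sequence is a property that the choice of genes did not use. RefSeq promoter windows of 300 bases, 250 before a start and 50 after it, were matched for 6 of the 7 genes among 32841 windows of GRCm38.p6; Mtus1 had no entry. The ratio of observed to expected CpG was above the median of all windows, 0.38, in each of the 6. It was 1.19 at Afdn, higher than in 99.5% of windows, 0.80 at Cyfip2, 0.74 at Fscn1, 0.70 and 0.81 at the 2 starts of Cdc42bpa, 0.62 at Tuba1a and 0.42 at Itga9. Only the Fscn1 and Tuba1a windows belong to the outermost start of the gene. The others belong to starts inside it, by 150 bases at Afdn, 501 at Cyfip2, 681 and 1010 at Cdc42bpa and 105 kb at Itga9, so they need not describe the main promoter.

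**Figure D5:**
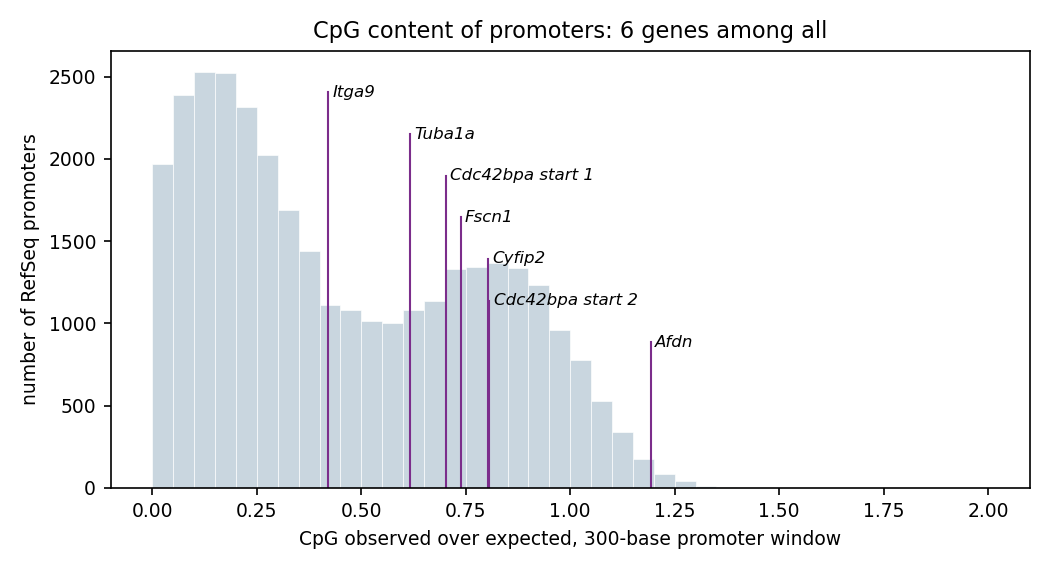
Number of RefSeq promoter windows (vertical axis) by the ratio of observed to expected CpG (horizontal axis), with the windows of 6 of the 7 genes as lines whose heights carry no value. Itga9 lies at 0.42, Afdn at 1.19 and the others between them, all above the median of 0.38.

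Motif matches were few. A GC box (GGGCGG) was found on either strand at Afdn, Cyfip2 and Tuba1a and in 35.7% of all windows, and a CCAAT box (CCAAT) at Cdc42bpa and Tuba1a and in 37.4% of windows. An AP-1 site (TGANTCA) was found at Itga9, after the start, and in 7.81% of windows. Its pattern reads alike on both strands, so the matches TGACTCA and TGAGTCA are the same bases seen from either strand. The letters of a PU.1 site (AGAGGAAGT), an E-box (CACGTG), an NF-kB site and a CArG box, the site of serum response factor at many actin genes, were in none of the 6 genes' windows, and in 1.00%, 7.15%, 5.81% and 1.63% of all windows. The motifs overlapped no other match in these windows.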

How the data were processed

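Total RNA of 18 cultures was made into stranded mRNA libraries with paired reads of 150 bp, per the labels' protocols. HISAT2, edgeR, R 4.0.3 and build GRCm39 are named in the submitters' processing notes, and their roles, the annotation, the filters and the test were not stated by the authors in any label. For each condition the authors deposited a list of genes with higher expression and one of genes with lower expression, in which a row has a log fold change, a p-value and a p-value adjusted by the authors. The log2 base of the deposited fold changes is an assumption, taken from the tool the authors name. No values per library were used, so depth is unknown and no model was fitted: the planned count model, the leaving out of replicates and a replicate block could not be run.

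Rows were read with Python 3.11.15 and pandas 2.3.3, and a row was called at an adjusted p under 0.05. The approximate SE divides the size of the log2 fold change by the normal quantile for the unadjusted p (scipy 1.17.1), since the deposited rows hold no SE; approximate 95% intervals follow from it. It assumes a normal test statistic and, for differences between conditions, independent libraries. The least number of tests is the largest product of adjusted p and rank over unadjusted p, rounded down to a multiple of 1000; it and the SE were tested on simulated data. The members, the gene lists and the motifs were chosen with earlier results of these data known. Genes named beyond the members are those of the lists with an adjusted p under 0.05. Some of up to 4 more per list by unadjusted p, and some of the 3 nearest by fold change, are named too. Eed, neighbours on the chromosome, MHC class II genes, Myo6, Sptbn1, Lsp1 and Palld are named outside this rule. Motifs and neighbours use RefSeq GRCm38.p6, and windows of transcripts use GENCODE M21. One result of the wider lists is not reported here.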

Additional observations from a re-analysis of the deposited data

How the results depend on the processing

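No paired analysis was possible because the deposited rows hold no values per library, and for the same reason no replicate was left out, although WT LPS primed replicate 1 has no label that names its comparison. The counts of called genes were recomputed at an adjusted p under 0.01 and under 0.1, with an absolute log2 fold change of at least 1, and, for the 7 genes, with 1 row per Ensembl identifier. Of these 30 alternatives, 28 stayed within 1.5 times the reported count. At an adjusted p under 0.01, 29 of the unstimulated rows were called, against 44 at 0.05, and 1 gene of the wider lists, Map2, against 2. Cdc42bpa, with 0.0131 in primed and 0.0429 in tolerant cells in the authors' deposited table, is not called at 0.01 in either. Fold changes would be larger if the deposited values were natural logs. An SE from Student's distribution with 4 degrees of freedom would be 0.00104 to 0.702 times the one given, so the SEs are rough and depend on the authors' unstated test.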
